A study of Mus musculus with 6 samples.

Results

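The genes of the mitochondrial protein import machinery and of the SLC25 family of mitochondrial carriers were examined for ribosome-directed editing in cultured mouse neurons. Members were the protein-coding mouse genes whose GENCODE symbol is *Tomm*, *Timm* or *Slc25a* followed by a number, and the rule used no measured value. It gave 72 of the 31053 listed genes, of which 10 are *Tomm*, 15 are *Timm* and 47 are *Slc25a* genes. Every GENCODE gene that fits the rule was listed.

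Nearly all mitochondrial proteins are encoded in the nucleus, made on cytosolic ribosomes and imported. The TOM complex is the entry gate of the outer membrane, with TOM20, TOM22 and TOM70 as receptors and TOM40 as the channel. Behind it, the TIM23 complex passes proteins with a cleavable presequence into or across the inner membrane, small TIM chaperones escort hydrophobic proteins through the intermembrane space, and the TIM22 complex inserts carrier proteins. SLC25 carriers, most of which are themselves imported through TOM70 and TIM22, exchange ADP for ATP, phosphate, amino acids, citrate, nucleotides, iron and cofactors across the inner membrane. Neurons rely on mitochondrial ATP, and the aspartate and glutamate carriers of the family link neuronal glycolysis to respiration.

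Bulk RNA-seq was made from 6 libraries of wild-type primary cortical neurons, prepared from C57BL/6J embryos at embryonic day 18 and treated with floxuridine against dividing cells. The neurons of all 6 libraries were infected at day in vitro 6 with an AAV Tet-On vector. In this vector the synapsin promoter, active in neurons, drives the transactivator. For all 6 libraries the neurons were induced with doxycycline (1 µg/ml) for 48 h before collection at day in vitro 14. In 3 libraries the induced protein was RPL10A-STAMP, the cytidine deaminase APOBEC1 fused to the mouse ribosomal protein RPL10A used in the TRAP system, and in 3 it was RPL22-STAMP, in which APOBEC1 is fused to RPL22 of the RiboTag system. The deaminase converts C to U in the mRNA near the ribosome that carries it, and the deposited measure is EPR, the number of edits per read of a gene. No library without a fused deaminase was analysed here, so background editing was not subtracted.

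EPR is a ratio and not an mRNA level. How many reads a value rests on is unknown, and an EPR of 0 can mean no edits or no reads. Of the markers examined, all 7 neuronal genes were edited in all 6 libraries, as were 3 of 4 astrocyte genes, 1 of 4 oligodendrocyte genes (*Mog* was at 0 throughout) and 0 of 4 microglial genes, of which 3 were at 0 throughout. The summed EPR of the astrocyte genes ranged from 0.0996 to 0.131 with RPL10A-STAMP and from 0.0825 to 0.138 with RPL22-STAMP, and the part of other cell types in the results was not tested. Replicates are called biological in a figure legend and in the methods of the study, and technical in its main text. The labels do not say that they were separate cultures, so p values measure the spread between these libraries.

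Because the deaminase acts on cytosines, the first 60 coding bases are shown for 3 called members, each followed by a paralog. They were read from the GENCODE transcripts of GRCm38, the assembly of the mm10 build, with each cytosine in capitals. The positions of the edits are not in the data used here, so no base below is a known edit site.

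Slc25a23: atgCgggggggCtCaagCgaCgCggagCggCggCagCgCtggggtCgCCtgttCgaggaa
Slc25a25: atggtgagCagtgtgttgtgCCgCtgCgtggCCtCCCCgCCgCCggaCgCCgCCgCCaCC
Slc25a36: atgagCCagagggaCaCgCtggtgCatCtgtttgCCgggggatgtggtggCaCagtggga
Slc25a33: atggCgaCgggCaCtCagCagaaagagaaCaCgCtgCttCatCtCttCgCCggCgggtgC
Timm17a: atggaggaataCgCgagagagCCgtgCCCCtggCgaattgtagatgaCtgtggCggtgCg
Timm17b: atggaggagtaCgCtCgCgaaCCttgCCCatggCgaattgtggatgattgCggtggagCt

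The stretch of *Slc25a23* lies at chr17:57059614-57059673 on the minus strand and that of *Slc25a25* at chr2:32451265-32451324 on the minus strand, whereas the other 4 stretches run across an exon junction. They hold 15 cytosines in *Slc25a23* against 24 in *Slc25a25*, 11 in *Slc25a36* against 18 in *Slc25a33*, and 12 in each of the *Timm17* genes. The GC content of the whole coding sequence was 57.6% for *Slc25a23* and 58.4% for *Slc25a25*, 46.0% for *Slc25a36* and 52.8% for *Slc25a33*, and 52.2% for *Timm17a* and 58.5% for *Timm17b*.

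Of the 72 members, 41 (56.9%) had an EPR above 0 in all 6 libraries, compared with 8046 (25.9%) of all listed genes. They were 8 *Tomm*, 8 *Timm* and 25 *Slc25a* genes. A further 17 members were edited in 1 to 5 libraries and 14 (19.4%) were listed at 0 in all 6, against 18242 (58.7%) of all genes. The listed genes were not limited to protein-coding genes, as the members were, so these shares compare unlike sets. The members at 0 throughout were *Tomm20l*, *Timm8a2*, *Slc25a2*, *Slc25a10*, *Slc25a13*, *Slc25a21*, *Slc25a31*, *Slc25a34*, *Slc25a41*, *Slc25a43*, *Slc25a45*, *Slc25a47*, *Slc25a48* and *Slc25a54*. Among them, *Slc25a13* encodes citrin, the aspartate and glutamate carrier best known from liver, while its paralog *Slc25a12* (aralar, the form of the brain) was edited in all 6 libraries. *Slc25a10*, the dicarboxylate carrier, and *Slc25a31*, the testis form of the ADP/ATP carrier, were also at 0, while the ADP/ATP carriers *Slc25a4* and *Slc25a5* were edited throughout.

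**Figure D1:**
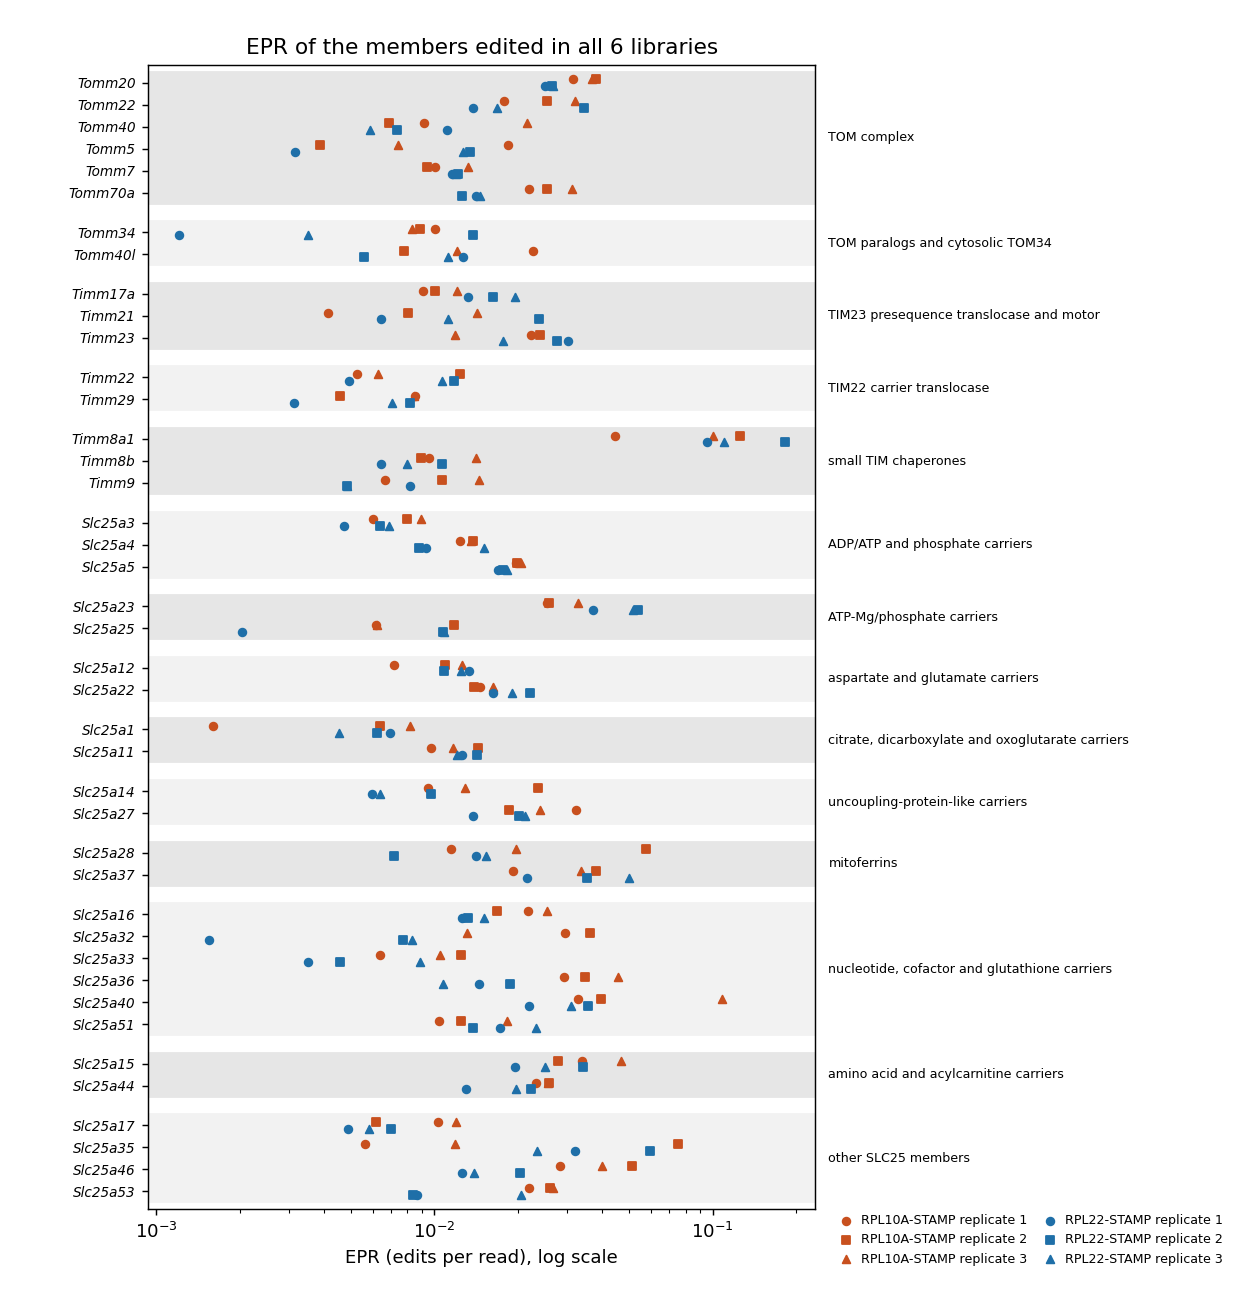
EPR (edits per read, log axis) of the 41 members edited in all 6 libraries, grouped by role; each point is a library, orange for RPL10A-STAMP and blue for RPL22-STAMP, with the marker giving the replicate. *Timm8a1* stands at the right, *Slc25a23* has its blue points to the right of its orange points, and *Slc25a36* and *Slc25a46* show the opposite order.

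The median EPR of the 41 members was 0.0124, 0.0144 and 0.0143 in the RPL10A-STAMP libraries and 0.0126, 0.0134 and 0.0138 in the RPL22-STAMP libraries. The group means of 0.0137 ± 0.00111 and 0.0133 ± 0.000623 (SD, n = 3 each) thus differed by 0.000400, less than the spread between libraries. The median over all 8046 genes was 0.0120, 0.0153 and 0.0161 under RPL10A-STAMP against 0.00907, 0.0129 and 0.0112 under RPL22-STAMP. Relative to that median gene, the members were at 1.04, 0.942 and 0.885 with RPL10A-STAMP and at 1.39, 1.04 and 1.23 with RPL22-STAMP, without a test. Across the 41 members, Spearman's rho of EPR between libraries was 0.617 to 0.732 within RPL10A-STAMP, 0.721 to 0.825 within RPL22-STAMP and 0.479 to 0.680 between the variants, where the points of a library share its depth.

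Members spread widely in EPR within a library. Among the 41 members edited in all 6 libraries, the highest mean belonged to *Timm8a1*. It encodes a small TIM chaperone whose human counterpart is mutated in deafness-dystonia syndrome. Next came *Slc25a40*, a mitochondrial glutathione carrier, and *Slc25a23*, an ATP-Mg/phosphate carrier. *Timm8a1* stood at 0.0446, 0.125 and 0.1 under RPL10A-STAMP against 0.0952, 0.182 and 0.1101 under RPL22-STAMP. *Slc25a40* stood at 0.0327, 0.0396 and 0.108 under RPL10A-STAMP against 0.0218, 0.0355 and 0.0309 under RPL22-STAMP. In *Slc25a40* the third RPL10A-STAMP library alone lay far above the others, while the ranges of *Timm8a1* overlapped between the variants as deposited. The lowest means among these 41 belonged to *Slc25a1*, the citrate carrier, *Timm29*, a TIM22 subunit, and *Slc25a3*, the phosphate carrier. The values of *Slc25a3* ranged from 0.00473 to 0.00892 over the 6 libraries.

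The variants were then compared gene by gene. Each library was scaled to its median gene, and log2(scaled EPR + 0.01) was fitted with limma over the 8046 genes, with p values adjusted by the Benjamini-Hochberg method and called under 0.05. Fold changes below are on this scale, as RPL10A-STAMP over RPL22-STAMP, and are compressed for genes of low EPR. Of the 41 members tested, 4 (9.76%) were called against 14.3% of all genes tested, 2 higher with RPL10A-STAMP (background 8.51%) and 2 higher with RPL22-STAMP (background 5.77%). The called members were *Slc25a36* and *Slc25a46*, higher with RPL10A-STAMP, and *Slc25a23* and *Timm17a*, higher with RPL22-STAMP. Without scaling the split was 3 to 0, since only *Slc25a32*, *Slc25a36* and *Slc25a46* were called, all higher with RPL10A-STAMP.

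The median log2 fold change of the members was close to that of all genes tested, at -0.02 against -0.01. A positive value was found in 20 members and a negative one in 21, and 33 lay within 0.5 on the compressed scale. The share of all genes tested within 0.5 is not given here. The scaled EPR of the variants did not overlap in 12 members (29.3%), against 37.1% of all genes tested, with RPL10A-STAMP above in 5 and RPL22-STAMP above in 7. Unadjusted p values were under 0.05 in 8 members (19.5%), against 2486 (30.9%) of all genes tested. The *Timm* genes had a median of -0.38 with 2 of 8 positive, the *Tomm* genes a median of 0.05 with 5 of 8 positive and the *Slc25a* genes a median of 0.05 with 13 of 25 positive.

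**Figure D2:**
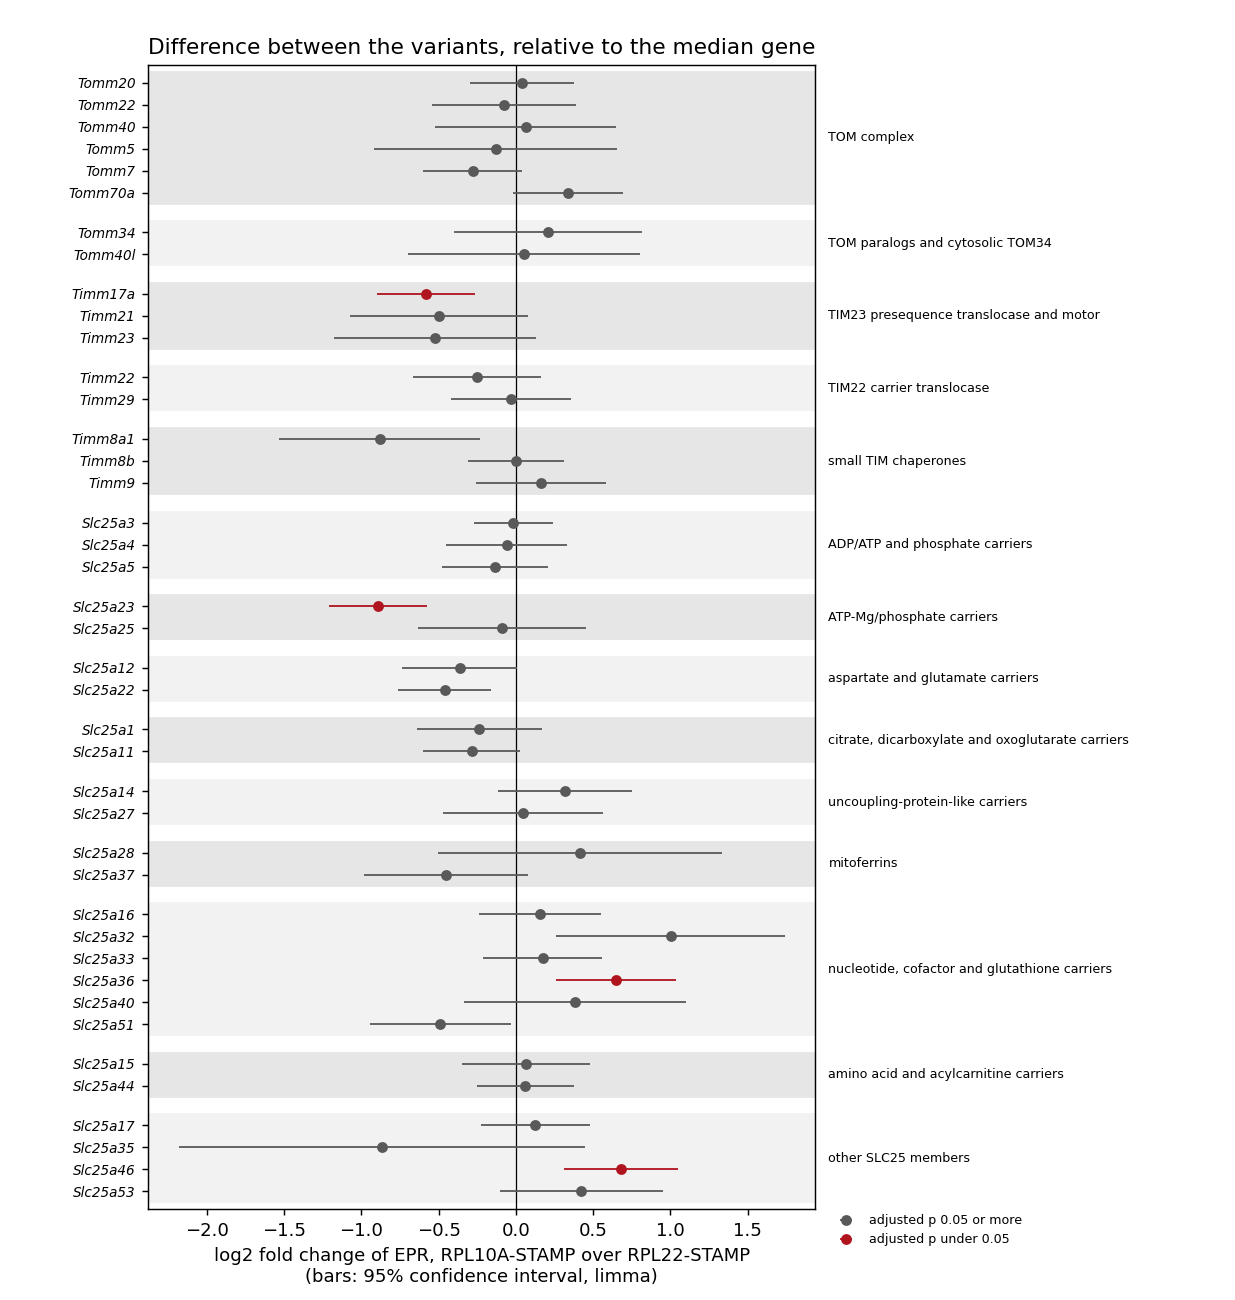
Log2 fold change of EPR (RPL10A-STAMP over RPL22-STAMP, relative to the median gene) for the 41 members edited in all 6 libraries, with 95% confidence intervals from limma; red marks an adjusted p under 0.05. *Slc25a23* and *Timm17a* lie left of 0 and *Slc25a36* and *Slc25a46* right of it, and the 3 members of the TIM23 group lie left of 0.

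*Slc25a23* (ENSMUSG00000046329, chr17:57043711-57059863) encodes a calcium-regulated carrier that exchanges ATP-Mg for phosphate and so sets the adenine nucleotide content of the matrix. Its EPR was 0.0254, 0.0259 and 0.0329 under RPL10A-STAMP against 0.0373, 0.0538 and 0.0516 under RPL22-STAMP. Every RPL22-STAMP library lay above every RPL10A-STAMP library, and scaling widened the gap to between 0.0213 and 0.0266 against between 0.0515 and 0.0576. The means as deposited were 0.0281 ± 0.00417 and 0.0476 ± 0.00898 (SD, n = 3 each). On the scaled values the log2 fold change was -0.89 (SE 0.13, limma adjusted p = 0.00841). The call held whichever library was left out (adjusted p = 0.0205 to 0.0428) and was lost without scaling (-0.59, adjusted p = 0.108).

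*Timm17a* (ENSMUSG00000062580, chr1:135295213-135313778) encodes a channel subunit of the TIM23 presequence translocase. Its EPR was 0.00912, 0.0101 and 0.0121 under RPL10A-STAMP against 0.0132, 0.0163 and 0.0195 under RPL22-STAMP. The variants did not overlap, with all RPL22-STAMP libraries above. The log2 fold change was -0.58 (SE 0.13, limma adjusted p = 0.0323), and -0.36 without scaling (adjusted p = 0.225). When each library was left out in turn the adjusted p was 0.0463 without RPL22-STAMP replicate 2 and between 0.0651 and 0.107 without any of the other 5 libraries.

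The other tested subunits of TIM23 had values on the same side without passing the test. *Timm23*, the presequence channel, stood at 0.0223, 0.0240 and 0.0118 under RPL10A-STAMP against 0.0303, 0.0276 and 0.0177 under RPL22-STAMP, so the variants overlapped. Its log2 fold change was -0.52 (95% interval -1.18 to 0.13, adjusted p = 0.248), and 11.8% of its transcript has exact copies elsewhere in the genome, whose reads cannot be assigned with certainty. *Timm21*, which connects TIM23 with the TOM complex, had a log2 fold change of -0.50 (95% interval -1.07 to 0.08, adjusted p = 0.216). All 3 values were negative in every limma alternative, between -0.17 and -0.95, and 1 of the 3 was called. The other 3 members of the group had zeros in some libraries, *Timm44* with a fold change of the opposite sign.

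*Slc25a36* (ENSMUSG00000032449, chr9:97074961-97111157) encodes a pyrimidine nucleotide carrier of the inner membrane. Its EPR was 0.0293, 0.0348 and 0.0455 under RPL10A-STAMP against 0.0144, 0.0187 and 0.0107 under RPL22-STAMP. All RPL10A-STAMP libraries lay above all RPL22-STAMP libraries. The log2 fold change was 0.65 (SE 0.16, limma adjusted p = 0.0419), and the call was lost whichever library was left out (adjusted p = 0.0507 to 0.139) and after quantile normalization (adjusted p = 0.0665).

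*Slc25a46* (ENSMUSG00000024259) encodes an outer membrane member of the family that takes part in mitochondrial fission and is mutated in inherited optic atrophy and axonal neuropathy. Its EPR was 0.0283, 0.0513 and 0.0401 under RPL10A-STAMP against 0.0126, 0.0202 and 0.0138 under RPL22-STAMP. Here too the variants did not overlap, and RPL10A-STAMP was higher. The log2 fold change was 0.68 (SE 0.16, limma adjusted p = 0.0322), a call likewise lost whichever library was left out (adjusted p = 0.0568 to 0.0981).

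**Figure D3:**
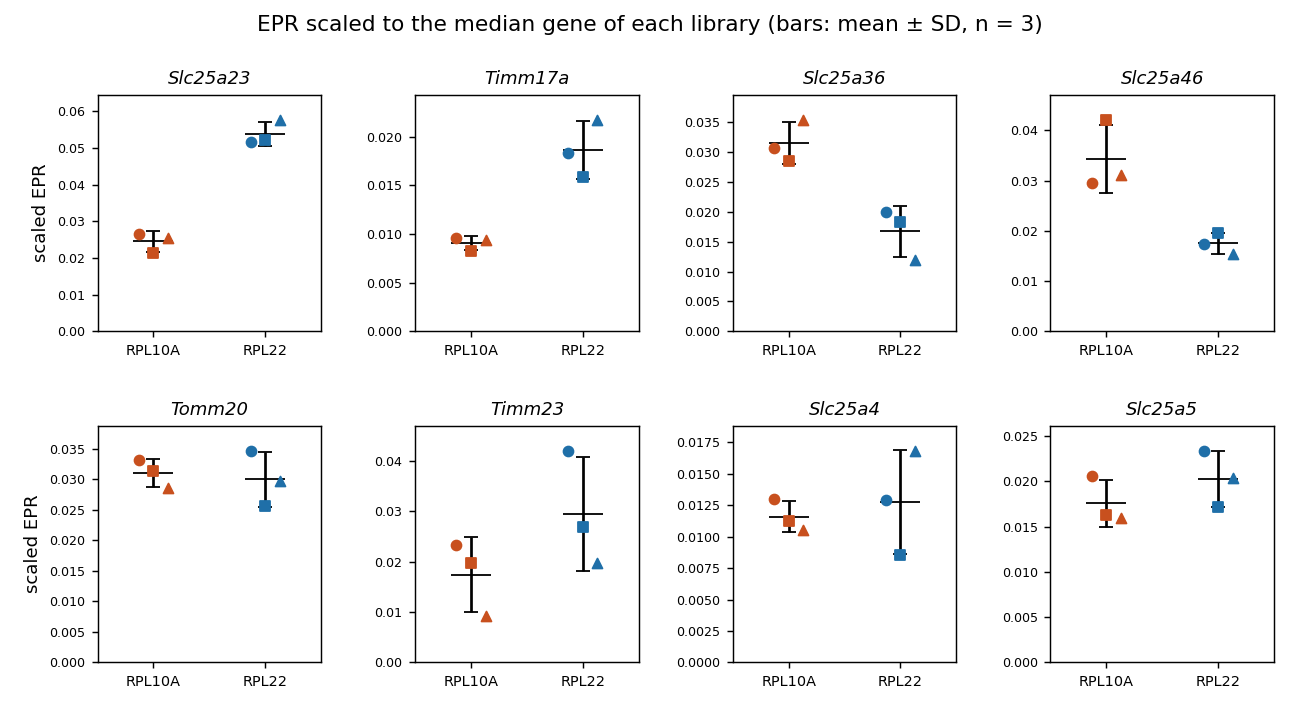
EPR scaled to the median gene of each library for the 4 called members (upper row) and 4 core members that were not called (lower row); points are libraries, bars the mean ± SD (n = 3), and every axis starts at 0. The variants are separate in the upper row, with *Slc25a23* and *Timm17a* higher with RPL22-STAMP, and overlap in the lower row.

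Of the 6 tested subunits of the TOM complex, 0 were called by limma, and 0 had an unadjusted p under 0.05. *Tomm20*, the presequence receptor, stood at 0.0316, 0.0381 and 0.0368 under RPL10A-STAMP against 0.0250, 0.0264 and 0.0267 under RPL22-STAMP. These values did not overlap as deposited, but they did after scaling, and the log2 fold change relative to the median gene was 0.04 (95% interval -0.30 to 0.38). *Tomm22*, the central receptor, had a log2 fold change of -0.08 (95% interval -0.54 to 0.39) and *Tomm40*, the channel, of 0.06 (95% interval -0.52 to 0.65). *Tomm70a*, the receptor for carrier precursors, stood at 0.0218, 0.0254 and 0.0313 under RPL10A-STAMP against 0.0141, 0.0126 and 0.0146 under RPL22-STAMP. All its RPL10A-STAMP libraries lay above, before and after scaling, but the log2 fold change of 0.34 (95% interval -0.02 to 0.69) did not pass (adjusted p = 0.181). The small subunits *Tomm5* and *Tomm7* were at -0.13 and -0.28, and *Tomm34*, a cytosolic partner of import, at 0.21.

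The carrier import route behind TOM had 5 tested members, of which 0 were called by limma and 1, *Timm8a1*, had an unadjusted p under 0.05. The TIM22 subunits *Timm22* and *Timm29* had log2 fold changes of -0.25 (95% interval -0.67 to 0.16) and -0.03 (95% interval -0.42 to 0.35). Of the small TIM chaperones, *Timm8b* was at 0.00 (95% interval -0.31 to 0.31) and *Timm9* at 0.16 (95% interval -0.26 to 0.59). *Timm8a1* was at -0.88 (95% interval -1.53 to -0.23, adjusted p = 0.0775), and its variants separated after scaling, with RPL22-STAMP above.

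The carriers that exchange ADP for ATP and import phosphate had fold changes near 0 relative to the median gene. *Slc25a4*, the ADP/ATP carrier of heart, muscle and neurons, stood at 0.0124, 0.0137 and 0.0136 under RPL10A-STAMP against 0.00933, 0.00881 and 0.0151 under RPL22-STAMP. *Slc25a5*, its broadly expressed paralog, stood at 0.0197, 0.0198 and 0.0205 under RPL10A-STAMP against 0.0169, 0.0177 and 0.0183 under RPL22-STAMP. The libraries of *Slc25a4* overlapped, while those of *Slc25a5* were apart as deposited, with RPL10A-STAMP above, and overlapped once scaled. Log2 fold changes were -0.06 (95% interval -0.45 to 0.33) for *Slc25a4*, -0.13 (95% interval -0.48 to 0.21) for *Slc25a5* and -0.02 (95% interval -0.27 to 0.24) for *Slc25a3*. All 3 were positive without scaling, where the median of all genes moved to 0.18.

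The 4 tested carriers of aspartate, glutamate, citrate and oxoglutarate had negative values without a call. *Slc25a22*, a mitochondrial glutamate carrier whose human counterpart is mutated in early epileptic encephalopathy, stood at 0.0145, 0.0139 and 0.0163 under RPL10A-STAMP against 0.0162, 0.0221 and 0.0191 under RPL22-STAMP. The third RPL10A-STAMP library lay just above the first RPL22-STAMP library, and after scaling all RPL22-STAMP libraries were higher. The log2 fold change was -0.46 (95% interval -0.77 to -0.16) at a limma adjusted p of 0.0559, just outside the threshold. It passed in 1 of 16 limma alternatives, quantile normalization (adjusted p = 0.0484). *Slc25a12*, the aspartate and glutamate exchanger of the malate-aspartate shuttle, was at -0.36 (95% interval -0.73 to 0.01, adjusted p = 0.171), and *Slc25a11*, the oxoglutarate carrier of the same shuttle, at -0.29 (95% interval -0.60 to 0.03, adjusted p = 0.197). *Slc25a1*, which exports citrate, was at -0.24 (95% interval -0.64 to 0.17). When the trend with transcript GC content was removed from each library, *Slc25a22* was at -0.13 (limma adjusted p = 0.551). In that fit *Slc25a11* was at -0.06, *Slc25a1* at 0.12 and *Slc25a12* at -0.46, all without a call.

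Values of either sign were found among the 6 tested carriers of nucleotides, cofactors and glutathione, with a median of 0.28 and *Slc25a36* as the only call. *Slc25a32*, known as a folate or flavin carrier, stood at 0.0294, 0.0364 and 0.0130 under RPL10A-STAMP against 0.00154, 0.00769 and 0.00829 under RPL22-STAMP. All its RPL10A-STAMP libraries were higher, but with the wide spread the log2 fold change of 1.00 (95% interval 0.26 to 1.74) had an adjusted p of 0.0777. It passed without scaling (adjusted p = 0.0332) and without RPL10A-STAMP replicate 3 (adjusted p = 0.0352), its lowest RPL10A-STAMP library, and in no other setting. *Slc25a51*, the mitochondrial NAD carrier, was at -0.49 (adjusted p = 0.138, or 0.0499 without RPL22-STAMP replicate 2, its lowest RPL22-STAMP library). *Slc25a40* was at 0.38 (adjusted p = 0.434). The mitoferrins, which import iron for haem and iron-sulphur clusters, were at 0.41 for *Slc25a28* (95% interval -0.50 to 1.33) and -0.45 for *Slc25a37* (95% interval -0.99 to 0.08). *Slc25a35*, of uncertain substrate, was at -0.87 with the widest interval of the members tested (-2.18 to 0.45). It passed without RPL10A-STAMP replicate 2 (adjusted p = 0.0379), the library in which it was highest, and 31.3% of its exon bases are also covered by *Rangrf* on the opposite strand.

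Members with zeros were left out of that fit and are given by library. *Slc25a38*, the mitochondrial glycine carrier needed for haem synthesis, was at 0 in all 3 RPL10A-STAMP libraries and at 0.00649, 0.00490 and 0.0105 in the RPL22-STAMP libraries. It was the only member with that pattern, and 0 members had the opposite one. The share of all listed genes with either pattern is not given here, so these counts do not set *Slc25a38* apart. The values at 0 may stand for a lack of reads, and no test is given, since a filter on edited libraries would admit the gene through its RPL22-STAMP libraries alone. *Slc25a26*, the S-adenosylmethionine carrier, stood at 0.0115, 0.0386 and 0.0189 under RPL10A-STAMP against 0, 0.00662 and 0.00541 under RPL22-STAMP. Its libraries did not overlap, with RPL10A-STAMP above. It was not called in a fit over genes edited in at least 3 libraries (limma adjusted p = 0.116).

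Among import genes with zeros, *Timm17b*, the X-linked paralog of *Timm17a*, was at 0.0111, 0 and 0 under RPL10A-STAMP against 0.0120, 0.0151 and 0.0286 under RPL22-STAMP. All its RPL22-STAMP libraries lay above, by little in the first, and 262 of the 2381 bases of its transcript have exact copies elsewhere. *Timm17b* was not called in the fit over genes edited in at least 3 libraries (limma adjusted p = 0.115). *Timm50*, the presequence receptor of TIM23, and *Timm44*, which tethers the import motor, were each edited in 5 libraries, and their variants overlapped. In a fit over genes edited in at least 3 libraries their log2 fold changes were -0.12 and 0.02. *Tomm6*, a small TOM subunit, was listed at 1.60, 0 and 0 under RPL10A-STAMP against 29.0, 54.0 and 0 under RPL22-STAMP, the only member with more edits than reads. Of its exon bases, 76.0% are shared with *Gm21981* on the same strand, so its reads cannot be counted with certainty and its values are not interpretable as editing per read.

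Paralog pairs were compared within each library, as the difference of log2(EPR + 0.01) between the genes of a pair. The values are as deposited, and because of the pseudocount a difference in overall editing between libraries does not cancel fully. In 6 pairs tested with the two-sided exact permutation test, whose smallest possible p is 0.10 with 3 libraries per variant, no adjusted p was under 0.30. *Slc25a23* lay above *Slc25a25* in all 6 libraries, by 1.08 ± 0.34 with RPL10A-STAMP and 1.72 ± 0.22 with RPL22-STAMP (SD, n = 3 each, exact permutation p = 0.10). *Slc25a33*, the paralog of *Slc25a36*, lay below it in all 6 libraries, by -1.23 ± 0.22 and -0.66 ± 0.45 (exact permutation p = 0.10). The variants did not overlap for these 2 pairs. *Slc25a4* lay below *Slc25a5* in all 6 libraries by a like amount, -0.37 ± 0.04 and -0.40 ± 0.20 (exact permutation p = 0.90).

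Transcript GC content moved with the difference between the variants. Over all genes tested, Spearman's rho between GC content and the log2 fold change was -0.467 (8039 genes), and over the 41 members it was -0.291, with genes that share libraries as points. The 9 members in the lowest quartile of GC content (under 44.5%) had a median log2 fold change of 0.34, against 0.27 for all genes there. The 9 in the highest quartile (over 53.6%) had a median of -0.09, against -0.25. Of the called members, *Slc25a36* and *Slc25a46* both had a GC content of 40.7%, *Timm17a* of 43.2% and *Slc25a23* of 56.4%. With the GC trend of each library removed, *Slc25a36* was at 0.30 (adjusted p = 0.274) and *Slc25a46* at 0.33 (adjusted p = 0.219), while *Timm17a* at -0.83 (adjusted p = 0.0170) and *Slc25a23* at -0.60 (adjusted p = 0.0415) passed. The part of GC content in the calls was not tested beyond this.

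**Figure D4:**
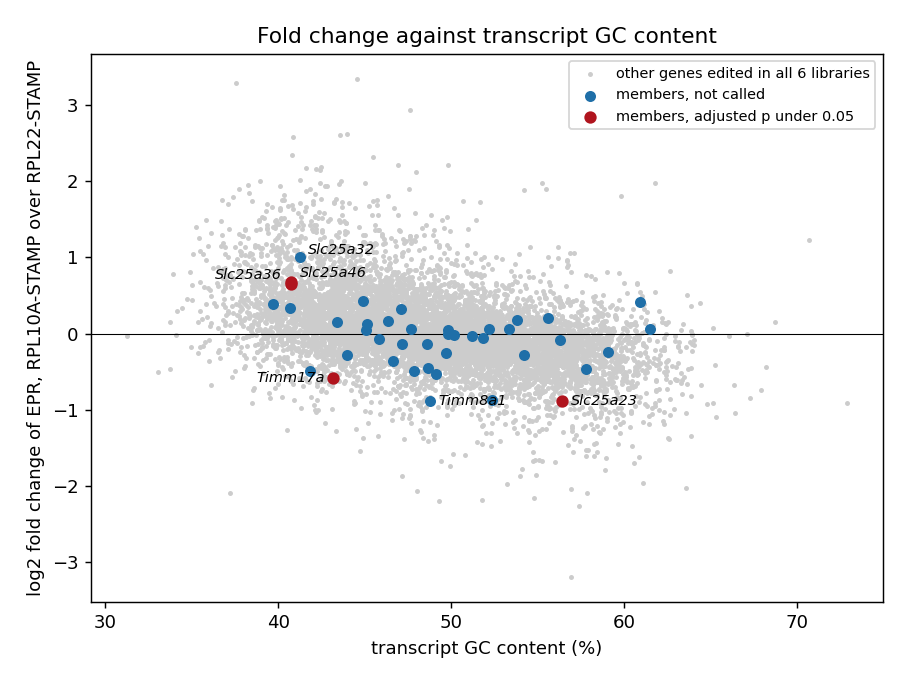
Log2 fold change of EPR (RPL10A-STAMP over RPL22-STAMP) against transcript GC content for all genes edited in all 6 libraries (grey) and the 41 members (blue, and red where the adjusted p is under 0.05). The grey cloud slopes down to the right, *Slc25a36* and *Slc25a46* lie at its left end, and *Timm17a* lies near its lower edge at low GC content.

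The members had a median GC content of 48.7%, close to the 48.9% of all genes tested. Their coding sequences were short, with a median of 933 bases against 1461, and so were their transcripts, with 2784 bases against 3455. Removing the trend with transcript length instead kept 3 of the 4 calls, and *Slc25a36* lost its call (adjusted p = 0.0604).

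Other import and transport genes (motor partners, presequence proteases, outer membrane sorting, intermembrane space import, pyruvate carriers and porins) were listed in 27 cases. Of these, 20 were tested and 1 (5.00%) was called, against 14.3% of all genes tested. That gene was *Pmpcb*, the catalytic subunit of the protease that removes presequences in the matrix, at 0.00706, 0.0137 and 0.0164 under RPL10A-STAMP against 0.00300, 0.00360 and 0.00181 under RPL22-STAMP. The variants did not overlap, and the log2 fold change was 0.62 (SE 0.14, limma adjusted p = 0.0322), opposite in sign to *Timm17a*. It passed without RPL10A-STAMP replicate 1 (adjusted p = 0.0339), but not without any of the other 5 libraries (0.0543 to 0.101) or with the GC trend removed (0.0551). The median over the 20 genes was -0.04, with 8 positive.

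The share of members called lay between those of other mitochondrial gene groups. Of the mitochondrial ribosomal protein genes, 2 of 53 tested were called, both higher with RPL22-STAMP, with a median log2 fold change of -0.11. Of the subunits of the respiratory chain and ATP synthase, 8 of 68 tested were called, 1 towards RPL10A-STAMP and 7 towards RPL22-STAMP, with a median of -0.16. The difference between these lists and the members was not tested.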

How the data were processed

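EPR was measured in 6 bulk libraries. The authors used cutadapt (1.18) for trimming and STAR (2.5.2b) for alignment to mm10, kept reads with up to 10 locations, found edits with SAILOR and counted reads with featureCounts (1.5.3). They deposited the ratio of edits to reads per gene, not normalized between libraries and without the counts, so the depth is unknown and no counting intervals were made. The annotation they used is not given in the sources used here. Reads with several locations and genes sharing exons make some ratios uncertain.

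GENCODE mouse release M21 held 31011 of the 31053 identifiers, and 42 stayed unmatched. The members and lists, and the filter, were chosen with earlier results of these data known. Tested genes were the 8046 with an EPR above 0 in every library. Dividing a library by its median over them, times the geometric mean of the 6 medians, gave scaled EPR. Log2(EPR + 0.01) was fitted with limma 3.58.1 (lmFit and eBayes with trend, two-sided) in R 4.3.3, and p values were adjusted over all 8046 genes (Benjamini-Hochberg, 0.05). The fit was run on simulated data with independent normal errors, drawn from the gene means and residual SDs of these libraries. Such data cannot show how the fit handles unknown depth or a trend with GC content. Deviations of same-numbered libraries correlated at 0.04, 0.05 and -0.01, and no block was used in this fit. These are correlations across genes, so a shift common to all genes of a library does not enter them. Whether replicate numbers mark shared cultures was not tested beyond this.

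For GC content and length, the transcript of a gene that has the longest coding sequence was taken. Exact copies were runs of at least 50 identical bases found with BLAST 2.17.0. Named genes were the members called, a list of core members, the 3 highest and 3 lowest in mean EPR, paralog pairs, pathway genes called and members with an EPR above 1. The 3 highest and 3 lowest were taken among the members edited in all 6 libraries. *Timm21*, *Timm22*, *Timm9*, *Timm17b*, *Tomm5*, *Tomm7*, *Tomm34*, *Slc25a26*, *Slc25a32*, *Slc25a35*, *Slc25a38*, *Slc25a51* and *Mtx3* were named after their values were seen, as were the members at 0. Alternatives covered the pseudocount, filter, scaling, replicate block, GC content, length, the test of the study and each library. Summaries and figures were made in Python 3.11.15 (matplotlib 3.10.9, scipy 1.17.1, pandas 2.3.3, numpy 2.4.6).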

Additional observations from a re-analysis of the deposited data

How the results depend on the processing

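Depth is unknown and 3 libraries per variant limit precision. Calls of members rested on few libraries: 4 were made, and 1 to 3 when a single library was left out, with *Slc25a23* called each time. Over all genes, 1149 calls became 373 to 874 without a library, 754 with genes edited in at least 3 libraries, 569 without a filter, 603 with the replicate block, 663 with the GC trend removed, 227 with the GC trend removed and the replicate block, and 0 by the methods' t-test, which gave 1996 genes an unadjusted p under 0.05. In the same settings the members called were 2 (*Slc25a23* and *Slc25a38*, which entered that fit through its RPL22-STAMP libraries alone), 1, 1 (*Slc25a23*, adjusted p = 0.0342), 2, 0 and 0. The t-test was applied here to EPR as deposited, with adjusted p values called under 0.05. In a figure legend the study instead called EPR changes at a t-test p under 0.05 with a log2 fold change beyond 0.5. Its methods describe an adjustment for that comparison, whereas its statistics section states none for EPR. The 1 pathway gene called, *Pmpcb*, became 0 to 1 genes without a library, 0 in the wider filter, without a filter, with the replicate block, with the GC trend and block and by the methods' t-test, and 2 after quantile normalization. The gene called with the GC trend removed (adjusted p = 0.0351) and without RPL22-STAMP replicate 2 (adjusted p = 0.0322) was *Mtx3*, not *Pmpcb*. Pseudocounts of 0.001 and 0.05 kept the same 4 members, whereas quantile normalization called *Slc25a22* (adjusted p = 0.0484) in place of *Slc25a36* (adjusted p = 0.0665). Calls without scaling were 88.1% higher with RPL10A-STAMP, against 59.6%. The cause of these changes was not tested, except that fewer libraries were fitted when a library was left out.

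The median log2 fold change of the members was -0.02, moved to 0.18 without scaling and lay between -0.07 and 0.03 without a library. The difference of the median EPR of members was 0.000400, 0.00300 as a mean over members, -0.00334 after scaling and 5.58e-05 to 0.00104 without a library.

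Some of the named members that were not called changed sign, among them *Slc25a28*, *Slc25a40* and *Tomm70a* with 0.41, 0.38 and 0.34 as reported. Without scaling the log2 fold change was 0.0446 for *Slc25a25*, 0.14 for *Slc25a3*, 0.15 for *Slc25a4*, 0.12 for *Slc25a5*, 0.0960 for *Timm29* and 0.18 for *Tomm22*. After quantile normalization it was 0.00483 for *Slc25a3* and -0.0643 for *Tomm20*. With the GC trend removed, with or without the block, it was 0.12 for *Slc25a1*, 0.20 for *Slc25a25*, 0.0502 for *Slc25a3*, 0.0781 for *Slc25a4*, -0.00600 for *Slc25a40*, 0.0808 for *Timm29*, -0.13 for *Tomm20* and -0.0154 for *Tomm70a*. With the length trend removed it was 0.13 for *Slc25a3*, 0.0363 for *Slc25a4*, 0.0173 for *Slc25a5*, -0.0203 for *Tomm20* and 0.0481 for *Tomm22*. With a pseudocount of 0.001 it was -0.00575 for *Timm8b*. Leaving out single libraries gave ranges of -0.33 to 0.0598 for *Slc25a25*, -0.0140 to 0.68 for *Slc25a28*, -0.0424 to 0.0198 for *Slc25a3*, -0.20 to 0.0660 for *Slc25a4*, -0.14 to 0.0894 for *Timm29*, -0.0577 to 0.0815 for *Timm8b*, -0.0403 to 0.12 for *Tomm20*, -0.18 to 0.12 for *Tomm22*, -0.14 to 0.26 for *Tomm40* and -0.25 to 0.27 for *Tomm40l*.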
